A study of Mus musculus with 4 samples.

Results

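The regulators of G protein signalling described here are 8 mouse Rgs genes (Rgs1, Rgs2, Rgs3, Rgs10, Rgs12, Rgs14, Rgs16 and Rgs19) among the 54532 genes of the count tables. The members were chosen by name with earlier results of these libraries known, and Rgs16 was selected on its measured ratios, for being lower in knockout than in wild-type cells in both treatments. Its genotype ratios are therefore a description. The cells were RAW 264.7, an established mouse macrophage line, either wild type or carrying the Hnrnpul1-/- genotype, which targets the gene of a nuclear RNA-binding protein related to hnRNP U. Polyadenylated RNA was sequenced from 4 libraries, 1 for each group: untreated wild type, untreated knockout, wild type with lipopolysaccharide and knockout with lipopolysaccharide. Lipopolysaccharide (LPS), a bacterial cell wall component that macrophages sense through TLR4, was applied at 100 ng/ml for 10 h. The sources used here do not say how the knockout line was made or whether it is 1 clone.

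G protein coupled receptors act through G alpha subunits that bind GTP and switch themselves off by hydrolysing it. RGS proteins speed up that hydrolysis through a shared RGS domain and so shorten the signal of receptors for chemokines, complement fragments, lipids and nucleotides. The small Rgs1 and Rgs16 and the larger Rgs3 act mainly on Gi and Gq subunits, and the small Rgs2 acts preferentially on Gq. Rgs19 and Rgs10 act on the Gi class, and Rgs12 and Rgs14 are scaffold proteins that add Ras-binding domains and a GoLoco motif. In macrophages the family is best known for tuning migration and inflammatory signalling.

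Total counts ranged from 17045432 to 17909549 per library. Levels are given as normalized CPM, read counts brought to a common library total after edgeR's TMM scaling, and differences as log2 ratios with a 95% interval for counting error. No group has a replicate, so no difference between conditions was tested; reads are not independent molecules, and the intervals do not cover variation between cultures. The words called higher or called lower mean a difference of 2-fold or more whose interval leaves out a ratio of 1. Of 9 macrophage markers, 8 passed the filter on low counts (mean CPM of 1 or more), and Mertk was the exception with 0 or 1 read. Their summed level was 3695 (wild type) and 3163 (knockout) normalized CPM without LPS, and 8492 and 5658 with it. Lyz2, the lysozyme gene, was the 1 marker called between genotypes (-1.42 with LPS), and without it the sums were 2109 and 2050, then 5158 and 4414. With LPS, Adgre1 (0.77) and Itgam (0.31) had higher levels in knockout and the other 5 measured markers lower ones, all under the 2-fold rule. The part of these differences in those of the Rgs genes was not tested. Markers of T cells, B cells, epithelium, fibroblasts and granulocytes (15 genes) had at most 8 reads each. The targeted gene Hnrnpul1 had 5086 reads for the untreated wild type and 447 for its knockout partner, then 3114 and 350 after LPS, so that 8.62% and 10.7% of the wild-type level remained.

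Expression of the 8 genes was concentrated in few members, and a different member led in wild type with LPS. In bulk RNA, fewer cells that express a gene and less of its RNA per cell cannot be told apart. Levels of different genes were compared as normalized CPM per kilobase of the deposited gene length. In untreated wild type the order was Rgs19 (45.8), Rgs10 (25.3), Rgs2 (14.4), Rgs1 (5.41), Rgs14 (4.33), Rgs16 (2.41), Rgs3 (1.69) and Rgs12 (0.0806). Untreated knockout cells kept this order except that Rgs16 (0.486) stood below Rgs3 (1.57). With LPS in wild type, Rgs16 moved to the top at 75.7 per kilobase, ahead of Rgs19 at 39.3, while Rgs10 was the fifth at 7.73. In knockout with LPS, Rgs19 led at 43.3 and Rgs16 was second at 22.5. Within each library neighbours in the order had separate counting intervals, except Rgs2 and Rgs1 in wild type with LPS (14.2 and 13.5) and Rgs14 and Rgs3 in knockout with LPS (3.81 and 3.24). The Rgs1 length of 6947 bases equals the whole span of the gene, introns included, so its level per kilobase is low for its read count.

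**Figure D1:**
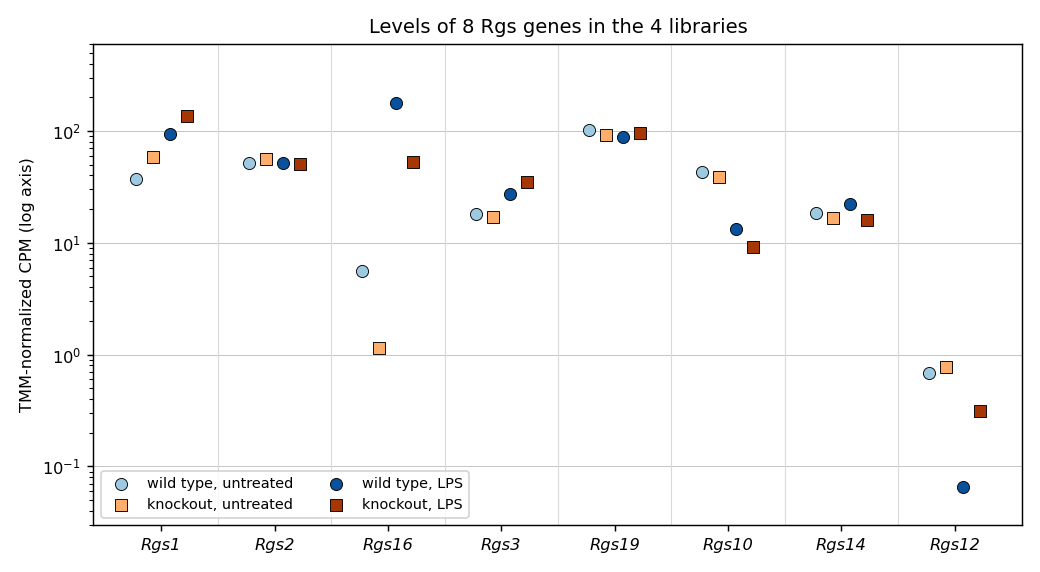
Level of each Rgs gene (horizontal axis) in the 4 libraries as TMM-normalized CPM on a log axis; each point is 1 library, circles wild type and squares knockout, pale untreated and dark with LPS. Rgs16 spans the widest range among the 7 more abundant members, from 1.14 in untreated knockout to 177 in wild type with LPS, while Rgs2 stays between 50.7 and 56.1.

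The summed level of the 8 genes per kilobase was 99.3 (wild type) and 94.2 (knockout) without LPS, and 158 and 112 with it. Rgs16 made up 2.42%, 0.516%, 47.8% and 20.1% of these sums. Without Rgs16 the other 7 summed to 96.9, 93.7, 82.6 and 89.2, so the larger sum under LPS was carried by that gene. Rgs19 made up 46.1%, 43.9%, 24.9% and 38.8%, and Rgs10 25.5%, 24.3%, 4.88% and 4.78%.

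**Figure D2:**
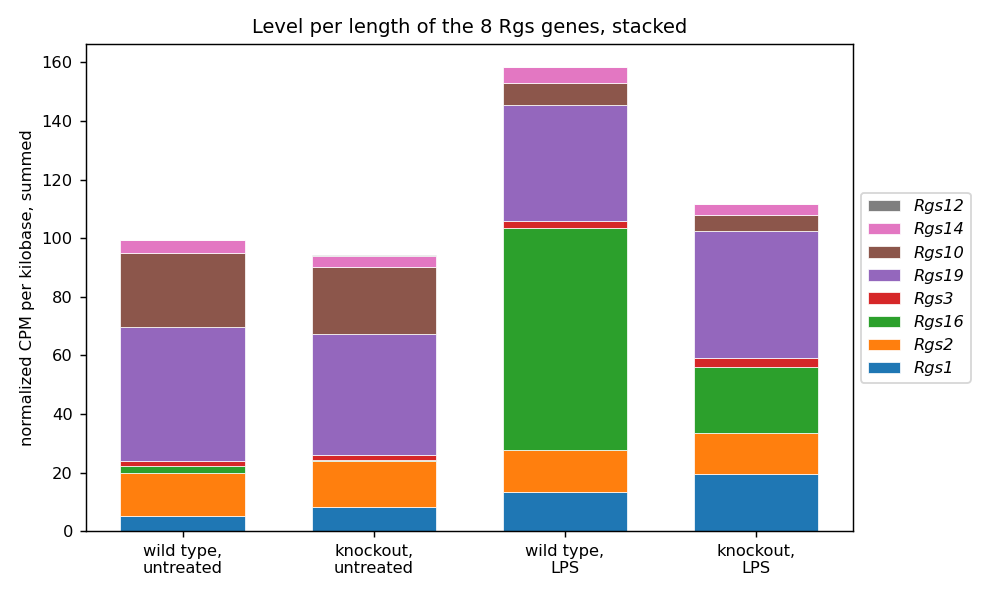
Stacked bars of normalized CPM per kilobase for the 8 Rgs genes in each library, starting at 0. Rgs16 takes 47.8% of the bar in wild type with LPS and 20.1% in knockout with LPS, and Rgs10 shrinks from 25.5% and 24.3% of the untreated bars to 4.88% and 4.78%.

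Rgs16 encodes a small RGS protein that acts on Gi and Gq subunits and is known as an inducible member in immune cells. It lies on chromosome 1 from 153740349 to 153745468 on the plus strand (GRCm38; ENSMUSG00000026475). Its read counts were 107 (wild type) and 22 (knockout) without LPS, and 2720 and 847 with it. Both LPS libraries stood far above both untreated ones, and the knockout was the lower library of each pair. In normalized CPM these were 5.63, 1.14, 177 and 52.6. The level per kilobase moved from the 22.8th to the 93.2nd percentile of the 11640 measured genes in wild type, and from the 5.30th to the 76.2nd in knockout. The LPS log2 ratio was 4.98 (4.70 to 5.27) for wild type and 5.53 (4.93 to 6.22) for the knockout, or 31.5-fold and 46.3-fold. By this ratio Rgs16 ranked 133rd of 11640 genes in wild type and 107th in knockout.

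Between genotypes, the measure on which it was selected, Rgs16 in knockout was at 20.2% of the wild-type level untreated (12.1 to 32.1%) and at 29.7% with LPS (27.5 to 32.1%). The log2 ratios were -2.31 (-3.04 to -1.64) and -1.75 (-1.86 to -1.64). The LPS response of knockout minus that of wild type was 0.56 (-0.11 to 1.23), an interval that includes 0. On the scale of log2(deposited FPKM + 1) this difference had the opposite sign, -0.52, since the added 1 is larger than the untreated knockout value of 0.467 FPKM. Rgs16 was 1 of 38 genes called lower in knockout in both treatments, 0.326% of the genes measured. By the weaker of both ratios it ranked 7th of these 38. The gene nearest to the 2-fold limit inside was Slc6a4 at -1.01, and the nearest outside was Ak1 at -0.999.

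Of those 38 genes, 8 (21.1%) were also called higher with LPS in both genotypes, as were 9.66% of all 11640 genes: Rgs16, Pid1, Layn, Slc6a4, Clec2d, Lrig1, Wfs1 and Gm35037, named after their values were seen. The 38 were picked on genotype ratios of these same libraries, so the shares are a description. Clec2d and Gm35037 were under 1 normalized CPM in both untreated libraries and passed the filter through the LPS ones. Untreated reads (wild type and knockout) were 6 and 0 for Clec2d and 25 and 10 for Lrig1. They were 30 and 14 for Wfs1 and 16 and 5 for Gm35037. With the 0 entered as 3, Clec2d had an untreated genotype ratio of -1.03. In wild type with LPS, Rgs16 had the highest level of the 8 genes at 75.7 normalized CPM per kilobase, followed by Layn at 38.3. Of all 1309 genes higher with LPS in wild type, 49 (3.74%) were lower and 64 (4.89%) higher in knockout than in wild type under LPS.

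To show the DNA next to the start sites of a strongly induced, a lowered and a level member, the 250 bases before the RefSeq start of Rgs16, Rgs10 and Rgs2 are printed 5′ to 3′ on the strand of the gene (RefSeq on GRCm38.p6). The intervals are chr1:153740103-153740352 (plus strand) for Rgs16, chr7:128418173-128418422 (minus strand) for Rgs10 and chr1:144004150-144004399 (minus strand) for Rgs2. The Rgs10 window lies inside the deposited span of that gene, which starts at 128418758 on the minus strand. Capitals mark matches to the motifs searched.
Rgs16: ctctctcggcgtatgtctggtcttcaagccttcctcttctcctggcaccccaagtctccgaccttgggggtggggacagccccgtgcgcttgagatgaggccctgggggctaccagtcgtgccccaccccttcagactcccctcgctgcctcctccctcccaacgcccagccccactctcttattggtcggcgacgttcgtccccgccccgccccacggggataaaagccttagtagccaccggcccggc
Rgs10: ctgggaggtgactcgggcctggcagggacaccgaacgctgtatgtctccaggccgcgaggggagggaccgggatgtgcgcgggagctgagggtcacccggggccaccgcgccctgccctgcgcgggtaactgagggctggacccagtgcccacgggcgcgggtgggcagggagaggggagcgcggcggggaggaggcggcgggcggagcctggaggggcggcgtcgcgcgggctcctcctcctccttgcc
Rgs2: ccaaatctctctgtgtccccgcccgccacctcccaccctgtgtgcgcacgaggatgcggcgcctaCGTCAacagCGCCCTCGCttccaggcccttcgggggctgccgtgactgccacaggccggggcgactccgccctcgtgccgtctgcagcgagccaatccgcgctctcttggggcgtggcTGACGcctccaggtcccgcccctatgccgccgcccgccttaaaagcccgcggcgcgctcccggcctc

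Both strands were searched for 7 short motifs. These were NF-kB (GGANNTTCC), the cAMP response element (CRE, TGACGTCA) and the short CRE (TGACG, contained in it), AP-1 (TGANTCA), an interferon response motif (AAANNGAAA), EGR (GCGNGGGCG) and C/EBP (TTGCNNAA). The Rgs16 and Rgs10 windows held none of these letters. The Rgs2 window held the short CRE on both strands, beginning 185 and 67 bases before the start, and 1 EGR match beginning 176 bases before it. Of 32851 windows of this length in the table, 17.8% held the short CRE, 4.70% the EGR motif, 3.59% NF-kB, 1.55% the full CRE, 6.75% AP-1, 9.37% the interferon motif and 9.56% C/EBP. Promoters were listed for 6 of the 8 members with 10 start sites in all. Of these 10 windows, 0 held NF-kB, the full CRE or the interferon motif, 2 held the short CRE, 2 EGR, 1 AP-1 (Rgs12) and 1 C/EBP (Rgs3). A match, or its absence, is a description of the letters in these windows.

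Rgs1, a brake on chemokine receptor signalling in leukocytes, was higher with LPS in both genotypes and somewhat higher in knockout throughout. The gene lies on chromosome 1 from 144242296 to 144249242 on the minus strand (ENSMUSG00000026358). Its read counts were 714 for the untreated wild type and 1139 for its knockout partner, then 1442 and 2180 after LPS. Each knockout library was above its wild-type partner, and untreated knockout stood below both LPS libraries. The LPS log2 ratio was 1.32 (1.19 to 1.45) for wild type and 1.20 (1.10 to 1.31) for the knockout. The call in knockout was lost when libraries were scaled by total counts (0.89). The genotype log2 ratio was 0.65 (0.51 to 0.78) untreated and 0.53 (0.43 to 0.62) with LPS, intervals above 0 but under the 2-fold rule, and the interaction was -0.12 (-0.28 to 0.05).

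Rgs2, which acts preferentially on Gq, was level across the libraries. It lies 238 kb from Rgs1, on chromosome 1 from 143999338 to 144004161 (minus strand; ENSMUSG00000026360). Its counts were 989 (wild type) and 1087 (knockout) without LPS, and 792 and 816 with it. In normalized CPM these were 52.1, 56.1, 51.6 and 50.7, with no group apart from the others. The LPS log2 ratios were -0.01 (-0.15 to 0.12) for wild type and -0.15 (-0.28 to -0.01) for the knockout. The genotype log2 ratios were 0.11 (-0.02 to 0.23) untreated and -0.03 (-0.17 to 0.12) with LPS. These intervals exclude a 2-fold difference by counting, in libraries whose variation between cultures is unknown.

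Rgs3, a longer protein with several isoforms, lies on chromosome 4 from 62559847 to 62704001 (plus strand; ENSMUSG00000059810). It had 347 reads for the untreated wild type and 329 for its knockout partner, then 417 and 563 after LPS. In normalized CPM these were 18.3, 17.0, 27.2 and 35.0, so both LPS libraries were above both untreated ones. The LPS log2 ratio was 0.57 (0.36 to 0.78) in wild type, under the 2-fold rule, and 1.04 (0.84 to 1.24) in knockout, just past it. The latter call was lost with total counts (0.73), with log2(deposited FPKM + 1) (0.72) and when the whole interval had to lie beyond 2-fold. The interaction was 0.47 (0.19 to 0.75), under the 2-fold rule, and the genotype log2 ratios were -0.10 (-0.33 to 0.12) untreated and 0.36 (0.18 to 0.55) with LPS.

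**Figure D3:**
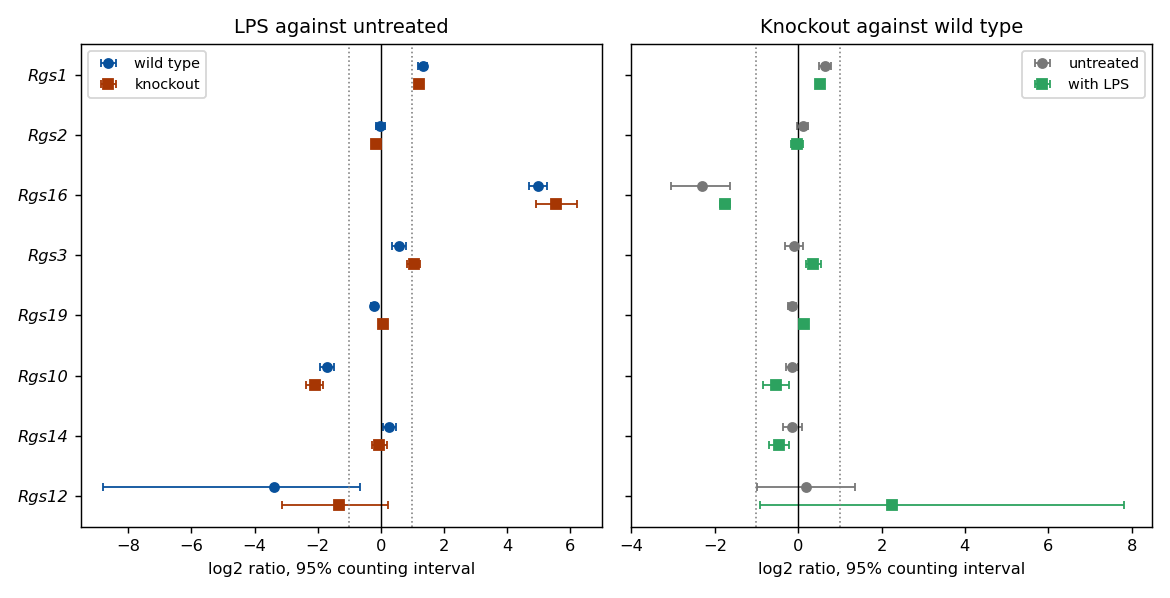
Log2 ratios (points) with 95% counting intervals (bars) for the 8 Rgs genes; left, LPS against untreated in wild type and knockout; right, knockout against wild type untreated and with LPS; dotted lines mark 2-fold. Rgs16 lies far to the right on the left panel (4.98 and 5.53) and is the member beyond the 2-fold line with an interval clear of 0 on the right panel (-2.31 and -1.75).

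Rgs19, also called GAIP, acts on Gi subunits and was the most abundant member per length in 3 of the 4 libraries. It lies on chromosome 2 from 181688419 to 181693977 (minus strand; ENSMUSG00000002458). Its counts were 1939 (wild type) and 1784 (knockout) without LPS, and 1347 and 1555 with it. As normalized CPM these were 102, 92.1, 87.7 and 96.6, which do not order the libraries by treatment. LPS log2 ratios were -0.22 (-0.32 to -0.12) for wild type and 0.07 (-0.03 to 0.17) for the knockout, the latter -0.24 with total counts. Genotype log2 ratios were -0.15 (-0.24 to -0.05) untreated and 0.14 (0.03 to 0.24) with LPS, and the interaction was 0.29 (0.15 to 0.43).

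Rgs10, a small Gi-directed protein studied in microglia and macrophages as a restraint on inflammatory activation, was the 1 measured member called lower with LPS. It lies on chromosome 7 from 128373621 to 128418758 (minus strand; ENSMUSG00000030844). Its read counts were 822 for the untreated wild type and 757 for its knockout partner, then 203 and 147 after LPS. Both LPS libraries were well below both untreated ones. With LPS, 30.6% of the untreated level was left in wild type (26.1 to 35.7%) and 23.4% in knockout (19.4 to 27.9%), log2 ratios of -1.71 and -2.10. Genotype log2 ratios were -0.15 (-0.29 to -0.003) untreated and -0.53 (-0.85 to -0.22) with LPS, and the interaction was -0.39 (-0.73 to -0.05), all under the 2-fold rule.

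Rgs14, a scaffold with Ras-binding domains and a GoLoco motif, lies on chromosome 13 from 55369732 to 55384687 (plus strand; ENSMUSG00000052087). It had 349 reads (wild type) and 323 (knockout) without LPS, and 341 and 260 with it. As normalized CPM these were 18.4, 16.7, 22.2 and 16.1, with wild type with LPS the highest. The LPS log2 ratios were 0.27 (0.05 to 0.49) and -0.05 (-0.29 to 0.19), and the wild-type value was -0.02 with total counts. Genotype log2 ratios were -0.14 (-0.36 to 0.08) untreated and -0.46 (-0.70 to -0.22) with LPS.

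Rgs12, the largest scaffold member, with PDZ and Ras-binding domains, was the 1 gene of the 8 under the filter on low counts. It lies on chromosome 5 from 34949445 to 35039644 (plus strand; ENSMUSG00000029101). It had 13 reads for the untreated wild type and 15 for its knockout partner, then 1 and 5 after LPS. The LPS log2 ratios were -3.39 (-8.80 to -0.66) for wild type and -1.32 (-3.13 to 0.21) for the knockout, and the genotype ratios were 0.18 (-0.99 to 1.37) untreated and 2.25 (-0.91 to 7.82) with LPS. Neither genotype interval left out a ratio of 1, and at this depth they leave room for differences of more than 2-fold.

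Among the 7 members that passed the filter, 2 (Rgs1 and Rgs16) were called higher with LPS in wild type, where 11.2% of all 11640 genes were, and 1 (Rgs10) was called lower, where 10.1% were. In knockout, 3 (Rgs1, Rgs3 and Rgs16) were called higher against 11.6% of all genes, and 1 (Rgs10) lower against 12%. The 7 had a median LPS log2 ratio of 0.27 (wild type) and 0.07 (knockout), and all genes had -0.004 and -0.02. Between genotypes, 0 members were called higher untreated, where 1.15% of genes were, and 0 with LPS, where 1.66% were. Rgs16 was the 1 member called lower, against 0.859% of genes untreated and 1.83% with LPS, a call that its selection fixed. No member was called in the interaction, for which 1.19% of genes were called higher and 1.84% lower. These comparisons share libraries, so their values are set side by side and not as separate evidence. Scaling by total counts in place of TMM moved the median of all genes to -0.30 in the wild-type LPS comparison and -0.33 in the knockout one, and the LPS ratios of the members shifted with it. The genes called higher and lower were then 975 and 1904 in wild type, against 1309 and 1180, and 989 and 2156 in knockout, against 1345 and 1398.

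**Figure D4:**
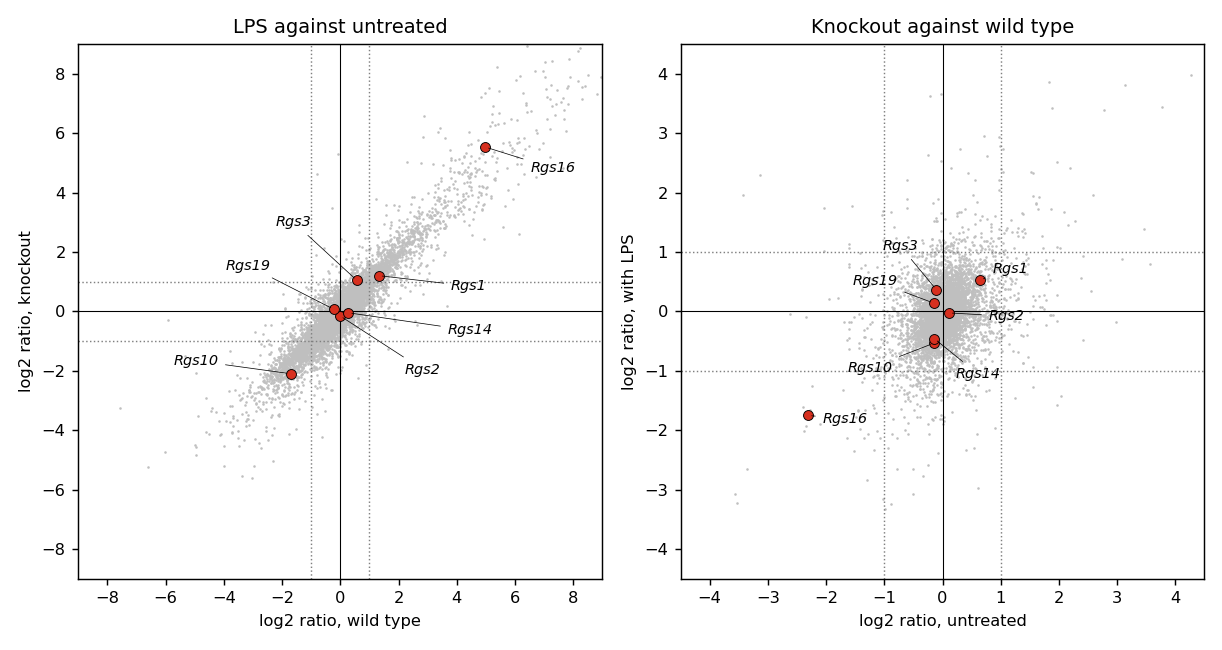
Log2 ratios of the 11640 measured genes (grey) and the 7 Rgs genes that passed the filter (red); left, LPS against untreated in wild type (horizontal) and knockout (vertical); right, knockout against wild type untreated (horizontal) and with LPS (vertical); dotted lines mark 2-fold, and 27 and 9 genes lie beyond the axes. Genes without a read in either library of a ratio have no value and are not drawn. Rgs16 sits at 4.98 and 5.53 on the left and at -2.31 and -1.75 on the right, and the other 6 lie within 2-fold on the right.

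Genes next to Rgs16 were compared between genotypes to place its difference on the chromosome. Of 7 neighbours within 500 kb that passed the filter on low counts and are described here, Npl was the 1 called between genotypes. Of all measured genes, 0.859% were called lower untreated and 1.83% with LPS. Npl, which encodes N-acetylneuraminate pyruvate lyase, an enzyme that breaks down sialic acid, lies 190.3 kb before the start of Rgs16, from 153503015 to 153550045. It had 465 reads (wild type) and 165 (knockout) without LPS, and 759 and 157 with it. Both knockout libraries were below both wild-type ones, and the log2 ratios were -1.52 (-1.79 to -1.26) untreated and -2.34 (-2.60 to -2.09) with LPS. Npl was called higher with LPS in wild type (1.01, 0.85 to 1.18) and not in knockout (0.19, -0.13 to 0.52), and its interaction of -0.82 (-1.18 to -0.46) was under the 2-fold rule. Npl is also among the 38 genes lower in both treatments.

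Beyond Npl as seen from Rgs16, Dhx9, an RNA helicase gene, had genotype ratios of 0.07 (0.03 to 0.10) and 0.001 (-0.05 to 0.05). Glul, Lamc1, Shcbp1l, E330020D12Rik and Gm37669 had genotype ratios from -0.65 (Glul with LPS) to 0.65 (Gm37669 untreated, on 25 and 40 reads). An antisense gene, Gm28513, overlaps Rgs16 and had 0, 0, 5 and 2 reads; the sources used here do not say if reads were counted by strand.

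**Figure D5:**
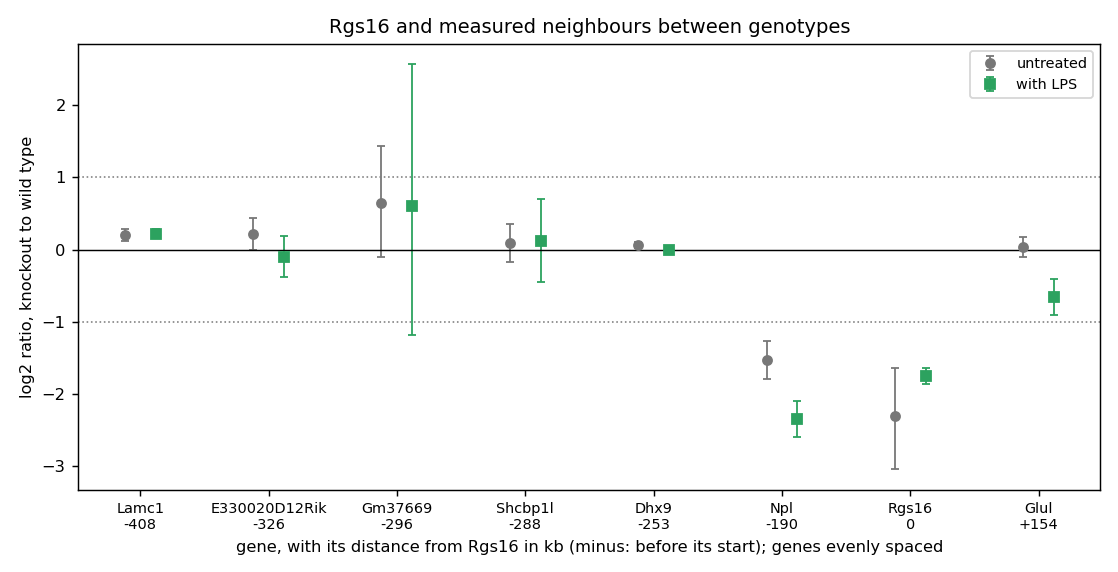
Knockout to wild-type log2 ratios with 95% counting intervals for Rgs16 and 7 measured genes within 500 kb, in chromosome order and evenly spaced, with the distance in kb under each name. Rgs16 and Npl lie below the 2-fold line in both treatments, while the other 6 genes lie within 2-fold in both.

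Around the other 7 members, 3 neighbours within 500 kb were called between genotypes. Rnf183, 125 kb from Rgs3, had a ratio of -1.14 untreated on 26 and 12 reads. Cox6a2, 167 kb from Rgs10, had ratios of -1.14 untreated and -1.71 with LPS on 8 to 26 reads. Mxd3, 39.9 kb from Rgs14, had a ratio of 1.22 with LPS on 23 and 56 reads. Over all 84 measured neighbours of the 8 genes, 3 were called lower untreated and 2 lower and 1 higher with LPS. Of all 11640 genes, 0.859% were called lower untreated, and 1.83% lower and 1.66% higher with LPS. Whether the neighbours differ from these shares was not tested.

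The genes most like a member were found by the distance between their 4 log2 levels, each centred on its own mean over the 4 libraries. Only measured genes with reads in every library were searched. For Rgs16 the nearest were Gm48786 (distance 1.22 log2 units), Trim34a (1.28), Ms4a6c (1.39), Gm12250 (1.39) and BE692007 (1.44), against a median distance of 5.66. Ms4a6c and BE692007 overlap on opposite strands of chromosome 19, and whether they share reads was not tested. All 5 nearest genes had LPS log2 ratios of 3.60 or more in both genotypes, a likeness that the search on these same levels fixed. Of these, Gm48786, Trim34a, Gm12250 and BE692007 were under 1 normalized CPM in both untreated libraries and passed the filter through the LPS ones. Untreated reads were 1 to 5 in each library for Gm48786, Trim34a and Gm12250, and 14 (wild type) and 6 (knockout) for BE692007. Their untreated genotype intervals were wide (-7.91 to 0.81 for Trim34a, -2.92 to 0.22 for BE692007). Ms4a6c, with 86 (wild type) and 37 (knockout) untreated reads, had genotype log2 ratios of -1.24 (-1.84 to -0.67) untreated and -0.22 (-0.33 to -0.11) with LPS, where Rgs16 had -2.31 and -1.75. With LPS the other nearest genes had genotype log2 ratios of -0.32 (Gm48786), -0.10 (Trim34a), -0.19 (Gm12250) and -0.05 (BE692007). For Rgs1 the nearest were Slc41a2 (0.13), M6pr-ps (0.16), Ripor3 (0.16), Pea15a (0.18) and Lysmd1 (0.21), against a median of 1.48. For Rgs2 they were Abce1 (0.02), Rbbp4 (0.02), Stoml2 (0.02), Ttc14 (0.03) and Naxd (0.03), against a median of 0.53. With 4 libraries this likeness is a description.

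Of 13 further Rgs genes in the tables, Rgs11 alone passed the filter. Rgs11, a member that pairs with the G beta subunit Gnb5, had 350 reads for the untreated wild type and 302 for its knockout partner, then 322 and 200 after LPS. As normalized CPM per kilobase these were 4.38, 3.71, 4.99 and 2.95. Its genotype log2 ratio was -0.24 (-0.47 to -0.01) untreated and -0.76 (-1.02 to -0.50) with LPS, under the 2-fold rule. Rgs8, Rgs9, Rgs13 and Rgs20 had at most 14 reads in any library, and the other 8 (Rgs4, Rgs5, Rgs6, Rgs7, Rgs17, Rgs18, Rgs21 and Rgs22) had 0 reads in each of the 4.

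Other genes of the pathway were counted by list, to be read beside the LPS calls over all genes (11.2% higher and 10.1% lower for wild type, 11.6% and 12% for the knockout). The genotype calls over all genes were 1.15% higher and 0.859% lower untreated, and 1.66% and 1.83% with LPS. The interaction calls were 1.19% higher and 1.84% lower. Of 16 G alpha subunits, on which RGS proteins act, 9 were measured and 0 passed the 2-fold rule in any comparison. Their LPS log2 ratios lay between -0.72 (Gnal) and 0.69 (Gna15) in wild-type cells, and their genotype ratios with LPS between -0.45 (Gnaq) and 0.25 (Gnal), genes named for being the extremes. The genotype ratios with LPS had a median of 0.16 where all genes had 0.001. Gnai2, the main Gi subunit of leukocytes, had the highest level at 133 (wild type) and 129 (knockout) normalized CPM per kilobase without LPS and 122 and 126 with it, above each of the 8 Rgs genes in every library. Of 15 listed proteins with an RGS-like domain, such as the receptor kinase Grk2, 11 were measured and 0 called, with LPS ratios of -0.20 and -0.10 for Grk2 in wild type and knockout.

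Of 17 G beta and gamma subunits, 9 were measured. After LPS, 1 was called lower in wild-type cells, and 1 higher and 2 lower in knockout cells. Gng7 had 49, 28, 3 and 7 reads in the order above and LPS ratios of -3.72 (-6.05 to -2.09) and -1.73 (-3.17 to -0.51). Gnb5, the partner of Rgs11, had LPS ratios of -0.87 (wild type) and -1.49 (knockout). Gng3 was called higher in knockout under LPS on 17 and 36 reads (1.01, 0.14 to 1.94), and its interaction was called as well (1.76, 0.56 to 2.97).

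Among 14 other modulators of G proteins, 11 were measured. After LPS, wild-type cells had 1 called higher and 1 lower, and knockout cells 1 and 2. Ric8a, a chaperone and exchange factor for G alpha subunits, was higher by 1.24 (1.10 to 1.37) and 1.52 (1.39 to 1.65). Gpsm2, a GoLoco protein of spindle orientation, had ratios of -1.45 (-1.63 to -1.26) and -1.88 (-2.08 to -1.68). Arrb1, a beta-arrestin, stood at -0.995 in the wild-type comparison, just under the rule, and at -1.38 in the knockout one. Arrb2, the other beta-arrestin and the highest of the list per length by its mean over the libraries, stood at 0.50 and 0.68. None of the 11 was called between genotypes.

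Of 20 adenylyl cyclases and cAMP phosphodiesterases, 11 were measured. After LPS, 3 were called higher and 2 lower in wild-type cells, and 3 and 3 in knockout cells. Pde4b, a phosphodiesterase known to be induced by LPS, was higher by 2.55 (2.17 to 2.94) and 2.53 (2.23 to 2.83). Adcy6 went from 104 to 4 reads in wild type and from 34 to 0 in knockout, and it was the 1 gene of this list lower in untreated knockout (-1.64, -2.24 to -1.07). Pde4d was the 1 lower in knockout with LPS (-1.21, -1.70 to -0.73).

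Of 39 macrophage receptors listed, 21 were measured. After LPS, wild-type cells had 10 called higher and 2 lower and knockout cells 11 and 2. The median log2 ratios of the 21 were 0.79 and 1.06, where all genes had -0.004 and -0.02. These calls and medians include Fpr1 and Fpr2, which had 0 untreated reads and passed the filter through the LPS libraries. C5ar1, the C5a receptor, was higher by 4.20 (3.98 to 4.41) and 4.62 (4.41 to 4.84), and Hcar2 by 3.87 and 4.29. Between genotypes, 1 receptor was called higher (Cysltr1) and 1 lower (Ccr1, -1.44, named after its value was seen) untreated. Cysltr1, a cysteinyl leukotriene receptor, had 5 reads (wild type) and 383 (knockout) without LPS, and 1 and 241 with it, genotype log2 ratios of 6.23 (5.00 to 7.86) and 7.84 (5.35 to 13.15). With LPS, the formyl peptide receptors Fpr2 (1.70, 1.45 to 1.95) and Fpr1 (1.13, 0.56 to 1.73) were also called higher in knockout; both had 0 reads in the untreated libraries. S1pr1, a sphingosine phosphate receptor, was the 1 called lower with LPS (-2.33, -4.08 to -0.91, on 24 and 5 reads). In the interaction, 1 receptor was called higher and 1 lower, the latter S1pr1 (-2.74, -4.16 to -1.31). Cx3cr1, the fractalkine receptor, had the highest mean level per length of this list over the 4 libraries and LPS ratios of -0.21 and -0.46. In knockout with LPS it stood at 67.2 normalized CPM per kilobase, below C5ar1 at 91.4.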

How the data were processed

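RNA-seq of RAW 264.7 macrophages was compared between genotypes and between LPS and no treatment (1 library per group). Read handling is credited to the submitters' processing notes: these list HISAT2 2.0.5, featureCounts 1.5.0-p3 and CASAVA 1.8 with no role or order, and GRCm38 as the build. Each deposited file holds raw read counts per gene, not normalized, and FPKM values, which, from the values, are the count divided by gene length and a constant per library. Total counts were 17162124 (wild type) and 17361615 (knockout) without LPS, and 17045432 and 17909549 with it.

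TMM factors (edgeR 4.0.16, R 4.3.3) over the 11640 genes whose mean CPM was 1 or more were 1.11, 1.12, 0.901 and 0.899. Log2 ratios of normalized counts carry exact conditional (Clopper-Pearson) 95% intervals, the interaction a delta-method interval. Ratios were computed for each gene without a fitted model. A call needs 2-fold and an interval that leaves out a ratio of 1. A count of 0 entered as 3 counts per library. The rule was tested on simulated data that held counting error alone, without variation between cultures. The members, gene lists and rules were chosen with earlier results of these data known. Named beside the members were list genes called in a comparison (at most 6 per list) with the most abundant one, measured genes within 500 kb, and the 5 most alike of Rgs1, Rgs2 and Rgs16. Promoters were taken from RefSeq and motifs searched in them. Protein sequences were not used here. A neighbouring gene is not reported here. The alternatives tried were scaling by total counts or by size factors (DESeq2 1.42.0), other filters, fold rules and pseudocounts, protein-coding genes alone and log2(deposited FPKM + 1).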

Additional observations from a re-analysis of the deposited data

How the results depend on the processing

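The number of Rgs members called was recomputed under 9 alternatives. It stayed within 1.5 times the value given for the wild-type LPS response, the LPS genotype comparison and the interaction. Exceptions were the LPS response in knockout with total counts, with 2 members called (Rgs16 and Rgs10) in place of 4, with the median of all genes at -0.33, and the untreated genotype comparison with a 1.5-fold rule, with 2 called (Rgs16 lower and Rgs1 higher) in place of 1. Without a filter on low counts, Rgs12 was also called lower with LPS in wild type, on 13 and 1 reads. Over all genes, the higher and lower counts between genotypes were 134 and 100 untreated and 193 and 213 with LPS. They became 300 and 267, and 385 and 401, without a filter, 27 and 16, and 43 and 58, at a mean CPM of 10 or more, 316 and 253, and 463 and 524, with the 1.5-fold rule, 28 and 20, and 65 and 56, with the whole interval beyond 2-fold, and 61 and 46, and 103 and 94, on log2(deposited FPKM + 1). The LPS counts of 1309 and 1180 in wild type and 1345 and 1398 in knockout became 2202 and 2230, and 2247 and 2448, with the 1.5-fold rule, 1000 and 681, and 1054 and 766, on log2(deposited FPKM + 1), 849 and 719, and 905 and 804, at a mean CPM of 10 or more, and 1013 and 728, and 1057 and 863, with the whole interval beyond 2-fold. The interaction counts of 138 and 214 became 254 and 344 without a filter, 21 and 41 at a mean CPM of 10 or more, 307 and 449 with the 1.5-fold rule, 12 and 27 with the whole interval, 132 and 124 on log2(deposited FPKM + 1) and 92 and 142 in protein-coding genes alone. Of 250 single values under alternatives, 231 stayed within their counting interval and 19 moved beyond it, 13 with total counts and 6 with log2(deposited FPKM + 1), and 0 called values changed sign. The ratio of Rgs16 ranged from 4.48 to 4.99 for LPS in wild type, from 3.96 to 5.56 in knockout, from -2.32 to -1.18 between genotypes untreated and from -1.75 to -1.70 with LPS. No paired analysis was possible because each group holds 1 library, the labels give no replicate numbers and no result comes from a test. For the same reason no library could be left out. Depth limits Rgs12 in all libraries and Rgs16 in untreated knockout (22 reads).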

Other observations

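On chromosome 1, the Rgs genes lying near Rgs1 and near Rgs16 differed widely in reads. Rgs4, Rgs5, Rgs7 and Rgs20 lie elsewhere on this chromosome. Between 143999338 and 144775435 lie Rgs2, Rgs13, Rgs1, Rgs21 and Rgs18. Rgs2 and Rgs1 had 792 to 1087 and 714 to 2180 reads, Rgs13 had 0 (wild type) and 5 (knockout) without LPS and 0 and 1 with it, and Rgs21 and Rgs18 had 0 in each. Around Rgs16, Rgs8 had 10 to 14 reads and Rgsl1, an RGS-like gene from 153779381 to 153844142, had 0 to 2, while Rgs16 had 22 to 2720. Rgs8 lies between Npl and Rgs16, and its genotype log2 ratios were 0.19 untreated and -0.33 with LPS on these few reads.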
